A study of Mus musculus with 6 samples.

Results

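The genes described here encode the ADAM and ADAMTS metalloproteinases and their ADAMTS-like relatives. The members were taken by gene symbol from a family list of 36 genes, each represented by the probe set that names only that gene and has the highest mean signal over all arrays. Of these, 35 were measured, among 19937 genes in all, and Adamts2 was not analysed here. They comprised 11 membrane ADAMs, the soluble ADAM-like gene Adamdec1, 18 secreted ADAMTS proteases and 5 ADAMTS-like genes. RNA came from 6 whole tumors of the mouse mammary carcinoma line 4T1, of which each Balb/C mouse had received 750000 cells in the 4th mammary gland. Beginning 7 days after injection, 3 mice were dosed orally with TKI258 at 40 mg/kg and 3 with water, every day for 14 days. TKI258 (dovitinib) is an inhibitor of receptor tyrosine kinases, including those for FGF, VEGF and PDGF. Each tumor was hybridized to 1 Affymetrix array, and all values are log2 signals, so that a difference of 1 is a doubling.

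ADAMs are zinc proteases anchored in the cell membrane. They cut the outer part of neighbouring membrane proteins, such as growth factor precursors, cytokines and adhesion molecules, and release it, a process called shedding. ADAMTS proteases are secreted, bind the matrix through thrombospondin repeats and cut proteoglycans, procollagens and other matrix proteins. ADAMTS-like proteins share the matrix-binding repeats but carry no protease domain. In mammary tumors, ADAM sheddases release ligands of the EGF receptor, and stromal cells are a source of many ADAMTS proteases.

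The tumor label was checked against epithelial markers. Of 9 such genes, 8 had a mean signal above 6.40, the median over all probe sets. The epithelial marker mean was 8.81, 8.59 and 8.90 in TKI258 tumors, against 8.71, 8.03 and 8.48 in water tumors, with 7 of 9 markers higher and 2 lower. The tight junction genes Cldn3 (0.65 ± 0.18) and Cldn4 (0.91 ± 0.30) and the keratin gene Krt7 (0.88 ± 0.36) had all TKI258 tumors above all water tumors. The keratin gene Krt18 (-0.32 ± 0.11) had all TKI258 tumors below all water tumors. Over all genes, 8.66% had all TKI258 tumors above and 6.49% had all below. These 4 markers were chosen after their values were seen, and none passed limma's adjusted test. Krt8, a simple epithelial keratin, lay at 11.77, 11.74 and 11.54 in TKI258 tumors, against 11.82, 11.88 and 11.74 in water tumors. The tumors also differed in markers of other cells. The B cell marker mean was 9.02 in TKI258 replicate 3 and 6.99 in water replicate 1, against 4.88 to 5.17 in the rest. The keratinocyte marker mean was 7.03 and 6.70 in water replicates 2 and 3, against 4.99 to 5.13 in the rest. TKI258 replicate 3 and water replicate 2 were the least alike of all array pairs (r = 0.973 over all probe sets, against 0.981 to 0.993 for the other pairs). In whole tumors, fewer cells of a type and less RNA per cell cannot be told apart.

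No member passed limma's test after Benjamini-Hochberg adjustment over all 34760 probe sets, and the smallest adjusted p of a member was 0.567 (limma, Adamts15). The share of probe sets that passed across the array was 0%, with 2803 at an unadjusted limma p under 0.05. At that unadjusted level 3 of the 35 members had higher signal in TKI258 tumors (Adamts5, Adamts15 and Adamtsl1), which is 8.57% of members, against 3.79% of all genes in that direction. No member was lower at that level, against 3.35% of all genes. Both directions together made up 7.14% of all genes, so the members' share lay near the background. When TKI258 replicate 3 and water replicate 2 were left out, 1 member was higher at that level (Adamts15). In that fit 4 were lower (Adam11, Adam19, Adam23 and Adamdec1). The share of all genes at that level in that fit is not given here, so these counts cannot be set against a background. Groups did not overlap for 4 members with higher signal in TKI258 tumors (Adam22, Adamts5, Adamts15 and Adamtsl1), against 8.66% of all genes. They did not overlap for 1 member with lower signal (Adam17), against 6.49% of all genes. An exact two-sided permutation test of a single gene over 3 and 3 tumors cannot go below p = 0.1, which these 5 genes reached.

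**Figure D1:**
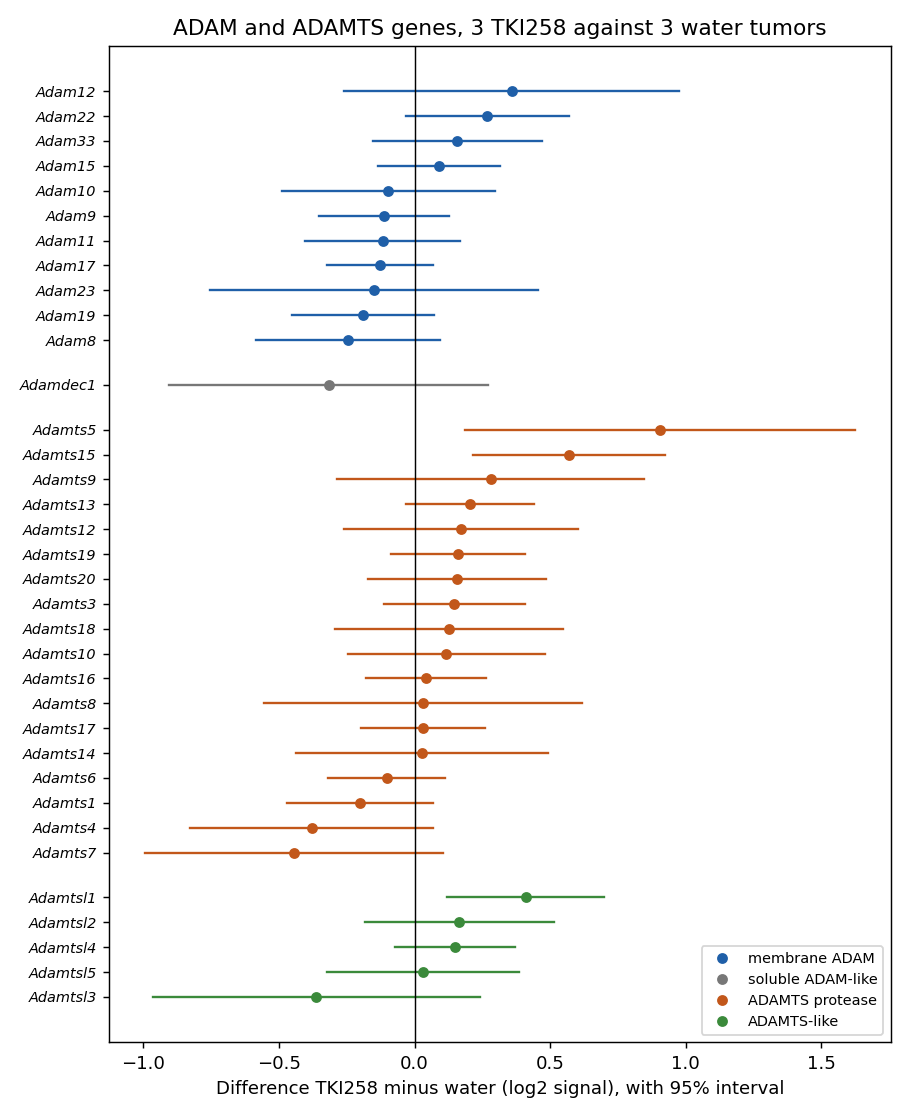
Difference of TKI258 minus water tumors (x axis, log2 signal) for each of 35 genes (y axis, grouped by class), with 95% intervals from limma (3 tumors a group). Only the intervals of Adamts5, Adamts15 and Adamtsl1 lie wholly on one side of 0, and no gene passed the adjusted test.

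Among the membrane ADAMs with a catalytic site, Adam17 and Adam10 are the principal sheddases. Adam17, also called TACE, releases TNF and several EGF receptor ligands. Its signal was 10.30, 10.32 and 10.20 in TKI258 tumors, against 10.35, 10.40 and 10.44 in water tumors. Every TKI258 tumor lay below every water tumor, but by a small step, a difference of -0.13 ± 0.08 (SE), and limma's adjusted p was 0.694. The 95% interval allows a level between 0.799 and 1.05 times that of water tumors. Adam10, which sheds Notch receptors, E-cadherin and other surface proteins, had 10.22, 10.37 and 10.17 in TKI258 tumors, against 10.29, 10.69 and 10.07 in water tumors. The TKI258 tumors lay within the range of the water tumors (-0.10 ± 0.16, limma adjusted p = 0.874), and the interval ran from 0.712 to 1.23 times.

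Adam8, an ADAM of leukocytes and tumor cells linked to cell adhesion and invasion, had 9.62, 9.55 and 9.32 in TKI258 tumors, against 9.49, 9.82 and 9.92 in water tumors. Water replicate 1 lay among the TKI258 tumors and the groups overlapped (-0.25 ± 0.14, limma adjusted p = 0.677). In the same tumors the mean of 9 neutrophil markers was 6.89, 6.67 and 6.46 with TKI258, against 7.18, 7.51 and 7.64 with water. All 9 were lower, Camp (-0.04) and Ltf (-0.10) by the least. The macrophage and mast cell marker means differed by -0.19 (8 of 9 lower) and -0.50 (8 of 8 lower). The epithelial marker mean differed by 0.36, with 7 of 9 higher. The part of these cells in the Adam8 values was not tested. Adam19, a sheddase of neuregulin, had 7.72, 7.59 and 7.90 in TKI258 tumors, against 8.01, 7.83 and 7.93 in water tumors. Here too the groups overlapped (-0.19 ± 0.11, limma adjusted p = 0.677). Adam9, a broadly expressed ADAM, had 10.34, 10.34 and 10.26 in TKI258 tumors, against 10.31, 10.59 and 10.37 in water tumors, a difference of -0.11 ± 0.10.

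Adam12, an ADAM of mesenchymal and tumor cells, had the largest positive difference of the membrane ADAMs. It stood at 7.38, 7.15 and 7.23 in TKI258 tumors, against 6.99, 6.31 and 7.38 in water tumors. Its water values spread over more than 1 log2 unit, with replicate 2 lowest and replicate 3 level with the highest TKI258 tumor (0.36 ± 0.26, limma adjusted p = 0.716). The difference was 0.07 when water replicate 2 was left out and 0.60 when water replicate 3 was. Adam15, found on endothelial and epithelial cells, had 9.47, 9.35 and 9.26 in TKI258 tumors, against 9.26, 9.35 and 9.19 in water tumors (0.09 ± 0.09). Adam33, a gene of mesenchymal cells, differed by 0.16 ± 0.13. Across these 8 catalytic genes 5 were lower and 3 higher in TKI258 tumors, and the median difference was -0.10.

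The 3 membrane ADAMs without protease activity, Adam11, Adam22 and Adam23, act as adhesion molecules or receptors, best known in neurons. All 3 had mean signals below the array median. Adam22, a receptor for the secreted protein LGI1, was at 4.48, 4.59 and 4.44 in TKI258 tumors, against 4.34, 3.99 and 4.37 in water tumors. All TKI258 tumors lay above all water tumors, TKI258 replicate 3 only by a small step (0.27 ± 0.13, limma adjusted p = 0.649). Adam11 and Adam23 differed by -0.12 ± 0.12 and -0.15 ± 0.25. Adamdec1, a soluble protease made by macrophages and dendritic cells, had 5.04, 4.69 and 5.71 in TKI258 tumors, against 5.42, 5.58 and 5.38 in water tumors. Its TKI258 tumors spread across both sides of the water tumors (-0.32 ± 0.25, limma adjusted p = 0.731). The difference was -0.60 when TKI258 replicate 3 was left out (unadjusted limma p of 0.00514) and -0.09 when TKI258 replicate 2 was. TKI258 replicate 3, the highest, also had the highest dendritic cell marker mean (6.62, against 5.77 to 6.32 in the other tumors).

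The ADAMTS proteoglycanases cleave aggrecan, versican and related proteoglycans. Adamts5, the main aggrecan-cleaving protease of mouse cartilage, had 6.94, 6.93 and 7.38 in TKI258 tumors, against 6.76, 5.56 and 6.21 in water tumors. Every TKI258 tumor was above every water tumor, with water replicate 1 close below them and water replicate 2 far below. The mean was 7.09 ± 0.26 in TKI258 tumors and 6.18 ± 0.60 in water tumors (SD, n = 3 each), which is 1.87 times the water level, with an interval of 1.14 to 3.08. This difference of 0.91 ± 0.30 had an unadjusted limma p of 0.0207 and an adjusted limma p of 0.580. It was 0.60 when water replicate 2 was left out, and 0.45 when TKI258 replicate 3 was left out as well. The unadjusted limma p was 0.0646 with only TKI258 replicate 3 left out.

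Adamts15, a proteoglycanase that cleaves versican and aggrecan, had 5.84, 5.91 and 6.15 in TKI258 tumors, against 5.56, 5.12 and 5.51 in water tumors. The groups did not overlap, and the mean was 5.97 ± 0.17 in TKI258 tumors and 5.40 ± 0.24 in water tumors (SD, n = 3 each). The difference was 0.57 ± 0.15, a level 1.48 times that in water, with an interval of 1.16 to 1.90 (limma p of 0.00709 before adjustment, limma adjusted p = 0.567). It was 0.34 when TKI258 replicate 3 and water replicate 2 were left out. Its mean signal lay below the array median, as for 13 members in all, and the deposited values carry no detection call.

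Adamts1 and Adamts4 differed in the other direction. Adamts4, an aggrecanase induced by inflammatory cytokines, had 8.12, 7.71 and 7.43 in TKI258 tumors, against 8.11, 8.30 and 7.99 in water tumors. TKI258 replicate 1 lay among the water tumors and the other 2 below them (-0.38 ± 0.19, limma adjusted p = 0.658). Adamts1, a protease of vessels and stroma that cleaves versican, had 7.72, 7.53 and 7.52 in TKI258 tumors, against 7.70, 7.71 and 7.97 in water tumors (-0.20 ± 0.11, limma adjusted p = 0.676). The other proteoglycanases, Adamts8, Adamts9 and Adamts20, differed by 0.03 ± 0.25, 0.28 ± 0.24 and 0.16 ± 0.14. The Adamts9 mean rested on TKI258 replicate 3 at 8.47, with the other 5 tumors between 7.55 and 7.76.

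In the RefSeq gene table for GRCm38.p6, both pairs of members that are next to each other among protein-coding genes joined a gene with a high difference to one without. Adamts5 (0.91) is next to Adamts1 (-0.20), and Adamts15 (0.57) is next to Adamts8 (0.03). These differences between neighbours were not tested.

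**Figure D2:**
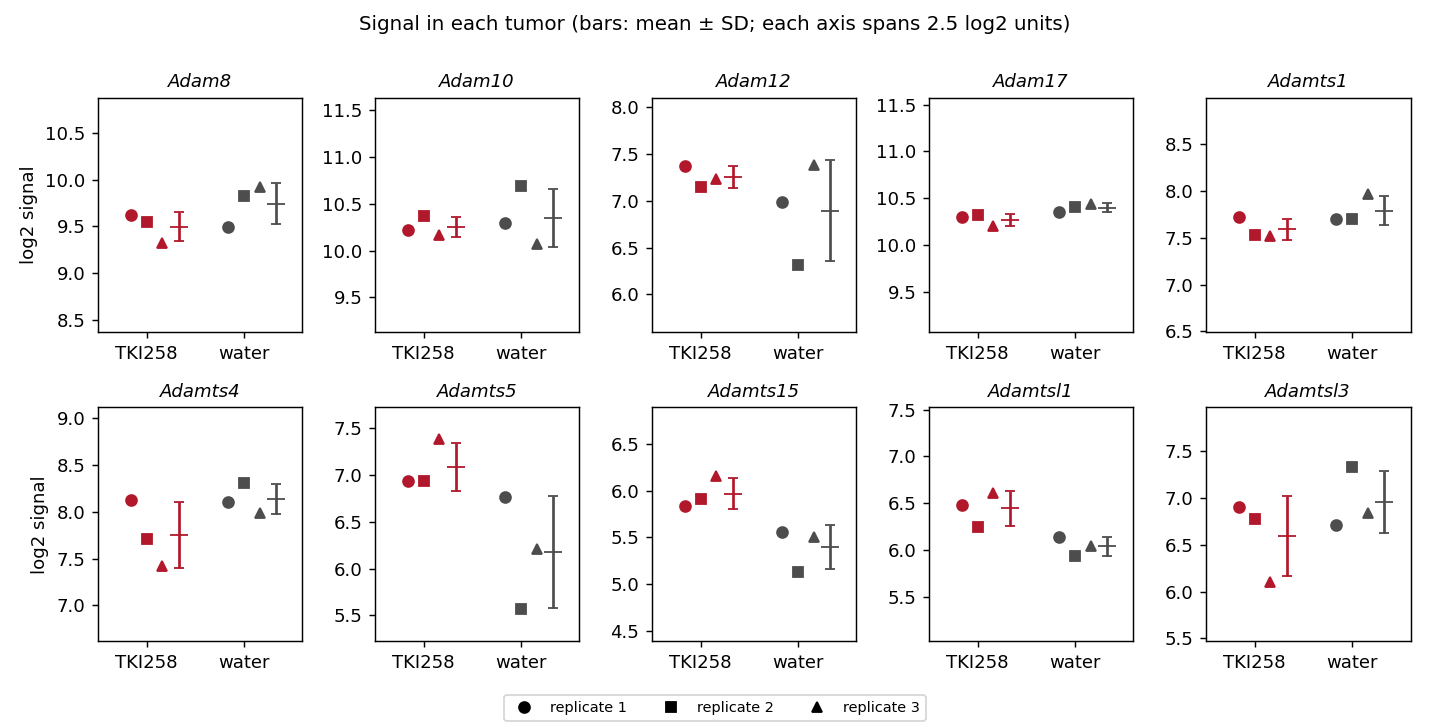
Log2 signal (y axis) of 10 genes in each TKI258 tumor (red) and each water tumor (grey). Symbols mark replicates, and bars give the mean and SD of 3 tumors. Adamts5, Adamts15 and Adamtsl1 have all TKI258 tumors above all water tumors, Adam17 has them below, and the other genes overlap.

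RefSeq promoter sequences on GRCm38.p6 were matched to 20 of the 35 measured members, and Adamts5, Adamts15 and Adamtsl1 were not among them. The 250 bases before the annotated start were GC-rich in these 20 members, with a median GC content of 66.2%, against 55.2% for 17492 protein-coding genes. A GC box (GGGCGG, either strand) was found in 14 of 20 members, or 70.0%, against 42.7% of protein-coding promoters. An ETS motif (CCGGAAG) was found in 2 of 20 against 9.13%, a TATA box (TATAAA) in 2 of 20 against 12.4%, and an AP-1 motif (TGANTCA) in 0 of 20 against 6.22%, all on either strand. Both ETS matches were in membrane ADAMs (Adam15 and Adam17). Sequences are shown for 1 membrane ADAM, Adam17, whose groups did not overlap, and 1 ADAMTS protease, Adamts1, the neighbour of Adamts5. Capitals mark the GC boxes, the ETS motif of Adam17 (reverse strand) and the TATA box of Adamts1, none of which overlap each other. Adam17 lies at chr12:21373633-21373882 and Adamts1 at chr16:85803114-85803363, both on the minus strand of GRCm38.p6, printed 5′ to 3′.
Adam17: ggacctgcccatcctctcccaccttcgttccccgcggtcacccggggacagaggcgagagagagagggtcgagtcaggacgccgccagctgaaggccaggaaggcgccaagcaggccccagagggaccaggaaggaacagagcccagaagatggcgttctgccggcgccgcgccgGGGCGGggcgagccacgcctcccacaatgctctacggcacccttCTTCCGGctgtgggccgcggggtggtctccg
Adamts1: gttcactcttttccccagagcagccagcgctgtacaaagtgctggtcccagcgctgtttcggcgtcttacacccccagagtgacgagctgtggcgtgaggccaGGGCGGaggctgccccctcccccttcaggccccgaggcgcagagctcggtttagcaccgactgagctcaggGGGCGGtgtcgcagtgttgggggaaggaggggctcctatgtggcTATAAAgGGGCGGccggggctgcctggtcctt
Adam17 holds 1 GC box and Adamts1 holds 3, and a letter match is not a measured binding site.

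The procollagen N-proteinases trim the amino end of fibrillar procollagens. Of these, Adamts3 and Adamts14 were measured and differed by 0.15 ± 0.11 and 0.03 ± 0.19. All 16 probe sets of Adamts3 had a higher mean in TKI258 tumors, by 0.0092 to 0.32, and none had an unadjusted limma p under 0.05 (smallest 0.0968). These probe sets read the same RNA and are not independent. Adamts7 and Adamts12 cleave the cartilage protein COMP. Adamts7 had 7.46, 7.04 and 7.07 in TKI258 tumors, against 7.36, 8.13 and 7.42 in water tumors, the most negative difference of the family at -0.44 ± 0.23 (limma adjusted p = 0.666). Water replicate 2 was the highest tumor, and with it and TKI258 replicate 3 left out the difference was -0.14. Adamts12 had 7.10, 7.25 and 7.69 in TKI258 tumors, against 7.30, 6.94 and 7.28 in water tumors, with overlap on both sides (0.17 ± 0.18).

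Adamts6 and Adamts10, which are linked to fibrillin microfibrils, differed by -0.10 ± 0.09 and 0.12 ± 0.15. Adamts13, the protease that cuts von Willebrand factor, had 5.07, 4.91 and 5.18 in TKI258 tumors, against 4.93, 4.81 and 4.81 in water tumors. TKI258 replicate 2 lay just below water replicate 1, and the difference was 0.20 ± 0.10 (limma adjusted p = 0.655). The substrate gene Vwf, an endothelial product, had 6.98, 7.09 and 7.37 in TKI258 tumors, against 6.67, 6.64 and 6.72 in water tumors. All TKI258 tumors were above all water tumors for Vwf (0.47 ± 0.12, limma p of 0.00545 before adjustment, limma adjusted p = 0.550). Vwf is among the 10 endothelial markers used here, of which 3 were higher and 7 lower in TKI258 tumors. The mean of that list differed by -0.17. The remaining proteases, Adamts16, Adamts17, Adamts18 and Adamts19, differed by 0.03 to 0.16, with all 4 means higher in TKI258 tumors and every adjusted limma p at or above 0.694. The 5 probe sets of Adamts17 disagreed, with 4 higher and 1 lower (-0.10 to 0.31); the smallest unadjusted limma p among them was 0.0276, against 0.751 for the brightest one.

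Of the ADAMTS-like genes, Adamtsl1, which encodes the matrix protein punctin, had 6.48, 6.25 and 6.61 in TKI258 tumors, against 6.14, 5.93 and 6.04 in water tumors. The groups did not overlap. Its mean was 6.45 ± 0.19 in TKI258 tumors and 6.04 ± 0.10 in water tumors (SD, n = 3 each), a difference of 0.41 ± 0.12 (limma p of 0.0124 before adjustment, limma adjusted p = 0.574), or 1.33 times with an interval of 1.09 to 1.62. A second probe set of the gene differed by 0.27, and the mean signals of both lay below the array median. Adamtsl3 had 6.91, 6.78 and 6.11 in TKI258 tumors, against 6.71, 7.33 and 6.84 in water tumors. The negative difference of -0.36 ± 0.25 turned to 0.07 when TKI258 replicate 3 and water replicate 2 were left out. Adamtsl4, which binds fibrillin, had 7.15, 7.11 and 7.10 in TKI258 tumors, against 6.94, 6.87 and 7.10 in water tumors (0.15 ± 0.09). Its TKI258 tumors were close together, and the highest water tumor lay between them. Adamtsl2 and Adamtsl5, also linked to microfibrils, differed by 0.17 ± 0.15 and 0.03 ± 0.15.

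Membrane ADAMs and secreted ADAMTS proteases were set side by side by direction. Of 11 membrane ADAMs, 4 were higher and 7 lower in TKI258 tumors, with a median difference of -0.11. Of 18 ADAMTS proteases, 14 were higher and 4 lower, with a median of 0.12, and of the ADAMTS-like genes 4 of 5 were higher. Over all genes 56.6% were higher, with a median of 0.02. The gap between the median of membrane ADAMs and that of ADAMTS proteases was -0.23, a description without a test.

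The gap was uneven across tumors and across the signal scale. In each tumor the gap was taken between the class medians of the deviation from each gene's mean over 6 tumors. It was -0.07, 0.01 and -0.08 in TKI258 tumors, against -0.04, 0.17 and 0.10 in water tumors, so the groups overlapped. Of the 18 ADAMTS proteases, 11 were highest in TKI258 replicate 3 (61.1%, against 26.3% of all genes) and 10 were lowest in water replicate 2 (55.6%, against 29.3% of all genes). Without both tumors the ADAMTS median was -0.03 and the gap was 0.00041. Of genes below the array median, 76.2% were higher in TKI258 tumors, and 40.5% were highest in TKI258 replicate 3. All 7 ADAMTS proteases below that median were higher and highest in that tumor. Of the 11 above it 7 were higher (63.6%), with a median of 0.03. Of those 11, 4 were highest in TKI258 replicate 3 (36.4%, against 14.6% of all genes above that median). Of the 8 membrane ADAMs above it, 3 were higher (37.5%), and of the 3 below it, 1 was. For comparison, 40.5% of all genes above the median were higher, with a median difference of -0.03. The membrane ADAMs there lay near that share.

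**Figure D3:**
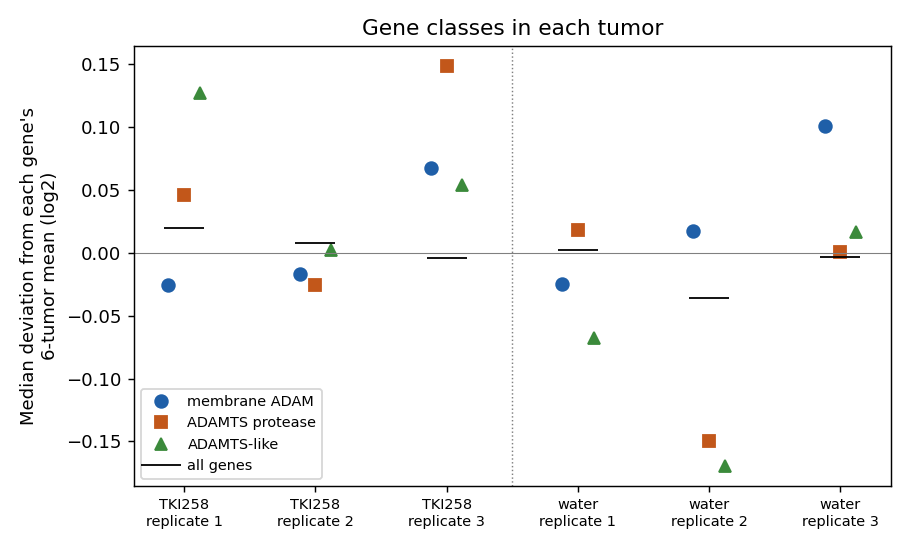
Median over each class of the deviation from each gene's own mean over 6 tumors (y axis, log2), in each tumor (x axis, TKI258 left of the dotted line, water right). ADAMTS proteases reach 0.15 in TKI258 replicate 3 and -0.15 in water replicate 2, and stay between -0.03 and 0.05 in the other 4 tumors.

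Markers of several cell types differed between the tumors alongside Adamts5, Adamts15 and Adamtsl1. The mean of 9 adipocyte markers was 7.26, 7.94 and 8.73 in TKI258 tumors, against 7.21, 6.14 and 6.69 in water tumors, and all 9 markers were higher. The mean of 11 fibroblast markers was 9.54, 9.36 and 9.69 in TKI258 tumors, against 9.20, 9.15 and 9.35 in water tumors, with 9 of 11 higher. TKI258 replicate 3 was highest and water replicate 2 lowest in both lists, as for these 3 genes, and the same held for the epithelial and B cell marker means. The means of 10 endothelial markers (3 higher, 7 lower) and 9 mural cell markers (4 higher, 5 lower) differed by -0.17 and -0.08, with overlapping groups. Of the markers, Dpt, which encodes the matrix protein dermatopontin, had 8.57, 8.55 and 9.70 in TKI258 tumors, against 8.45, 6.87 and 7.98 in water tumors. It was chosen after its values were seen. The part of these cell types in the 3 genes' values was not tested.

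**Figure D4:**
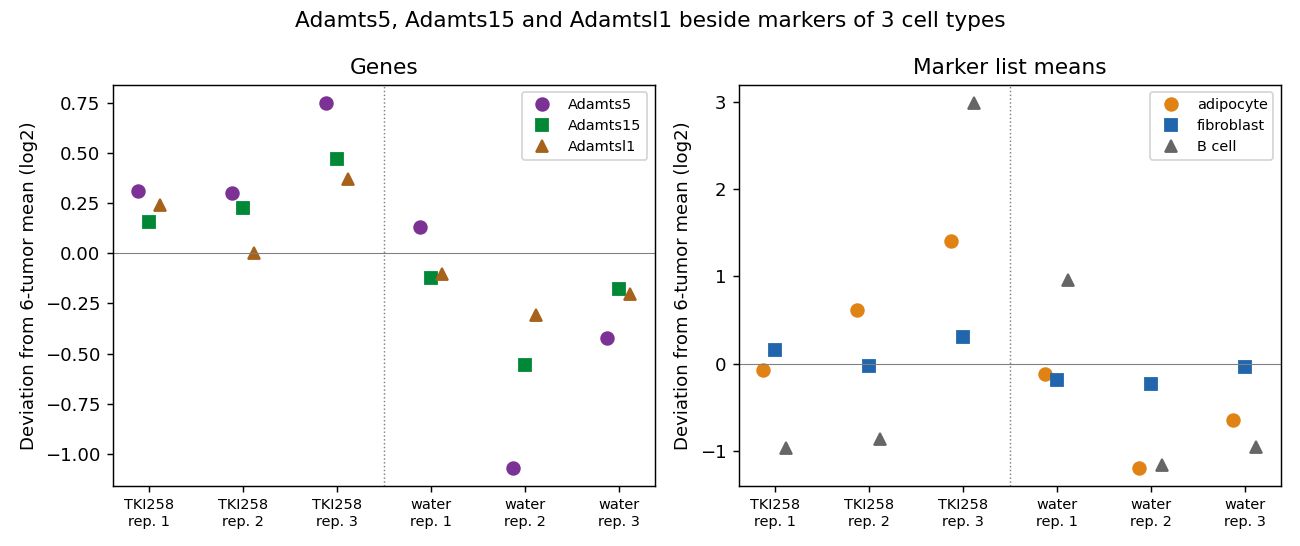
Deviation from the mean over 6 tumors (y axes, log2, with different scales) for Adamts5, Adamts15 and Adamtsl1 (left) and for the means of 9 adipocyte, 11 fibroblast and 8 B cell markers (right), in TKI258 tumors (left of each dotted line) and water tumors (right). All genes and both adipocyte and fibroblast means are highest in TKI258 replicate 3 and lowest in water replicate 2, and the B cell mean is also highest in TKI258 replicate 3.

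The inhibitors, activators and substrates of these proteases were read from 4 lists, and 0 of their 57 measured genes passed limma's adjusted test, with 5 at an unadjusted limma p under 0.05 (8.77%, against 7.14% of all genes). Of 6 inhibitor genes, 5 were higher and 1 lower (median 0.03), with 1 higher at an unadjusted limma p under 0.05. That gene was A2m, which encodes the broad protease trap alpha-2-macroglobulin, at 7.04, 6.61 and 6.42 in TKI258 tumors, against 5.90, 5.64 and 6.47 in water tumors. The groups overlapped at water replicate 3 (0.69 ± 0.25, limma adjusted p = 0.601). Timp3, the TIMP that inhibits ADAM17 and the aggrecanases, differed by 0.03 ± 0.28, and the membrane inhibitor Reck by 0.27 ± 0.15. Timp1 had 10.41, 9.81 and 9.59 in TKI258 tumors, against 10.11, 10.11 and 10.59 in water tumors (-0.33 ± 0.24).

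Of 13 genes for ADAM maturation and trafficking, 6 were higher and 7 lower (median -0.0014), and none had an unadjusted limma p under 0.05. Rhbdf2, which encodes iRhom2, the escort of ADAM17, had 8.46, 8.43 and 8.36 in TKI258 tumors, against 8.36, 8.48 and 8.42 in water tumors. The tumors of the 2 groups were interleaved, and the interval of the difference ran from -0.20 to 0.19. Furin, the convertase that removes the prodomain of ADAMs and ADAMTSs, differed by -0.05 ± 0.12. The smallest p in the list belonged to the convertase gene Pcsk5 (0.19 ± 0.17) and the tetraspanin genes Tspan10 (0.18 ± 0.16) and Tspan5 (0.10 ± 0.12).

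Of 18 measured genes whose products ADAMs shed, 7 were higher and 11 lower (median -0.09). Tgfa, the precursor of the EGF receptor ligand TGF-alpha and a substrate of ADAM17, had 7.85, 8.14 and 7.76 in TKI258 tumors, against 8.50, 8.40 and 8.42 in water tumors. All TKI258 tumors were below all water tumors, a difference of -0.52 ± 0.12 (limma p of 0.00356 before adjustment, limma adjusted p = 0.533). Hbegf, another EGF receptor ligand, differed by -0.23 ± 0.16. The E-cadherin gene Cdh1, cut by ADAM10, and the FGF receptor gene Fgfr2 differed by 0.27 ± 0.12 and 0.30 ± 0.13.

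Of 20 measured matrix substrates and partners of ADAMTS proteins, 16 were higher (80.0%, against 56.6% of all genes) and 4 lower (median 0.13). At an unadjusted limma p under 0.05, 3 were higher (Vwf, Dcn and Col3a1), which is 15.0%, against 3.79% of all genes in that direction. Water replicate 2 was the lowest tumor for 12 of the 20 (60.0%, against 29.3% of all genes). This list shares 4 genes (Col1a1, Col1a2, Col3a1 and Dcn) with the fibroblast markers, and Vwf with the endothelial markers. Dcn, the proteoglycan decorin, had 11.23, 10.58 and 11.39 in TKI258 tumors, against 10.09, 10.22 and 10.51 in water tumors (0.79 ± 0.23, limma adjusted p = 0.572). Col3a1, a fibrillar collagen, had 10.99, 11.04 and 11.25 in TKI258 tumors, against 10.66, 10.16 and 10.94 in water tumors (0.51 ± 0.20, limma adjusted p = 0.614). For both, the groups did not overlap. Vcan, which encodes versican, the shared substrate of Adamts1, Adamts4, Adamts5 and Adamts15, had 8.14, 8.14 and 7.83 in TKI258 tumors, against 7.80, 7.16 and 8.09 in water tumors. Water replicate 2 was again lowest, and the groups overlapped (0.36 ± 0.24, limma adjusted p = 0.700).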

How the data were processed

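The authors deposited 1 table of log2 signals for 34760 probe sets on 6 arrays, 1 per tumor. Per the submitters' processing notes these are RMA values, and affy and limma are also named. The software versions and build were not given in the sources used here. No pseudocount was needed on the log2 scale. The titles call the tumors biological replicates, and 3 a group limits the precision. Per the platform annotation, 21640 probe sets list 1 gene, 1321 several and 11799 none, and only the first kind stood for genes.

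limma 3.58.1 in R 4.3.3 was fitted to every probe set, unfiltered, with TKI258 or water as the only term, then eBayes. Tests were two-sided, with Benjamini-Hochberg adjustment over the whole table and a threshold of 0.05. Intervals are 95% and use the moderated errors. Medians over genes carry no test. The fit was tested on simulated data. The members, roles and gene lists were chosen with earlier results of these data known. Values per tumor were given for members with an unadjusted p under 0.05, for those without overlap that differed by at least 0.3, and for fixed genes of each role. From each list of inhibitors, maturation, shed and matrix genes, the 3 smallest p and some fixed genes were named. Values per tumor of Adam22, Adamts7, Adamts13 and Adamtsl3 were added after they were seen. Alternatives were a filter on signal, quantile normalization, median centring, a replicate number block, another eBayes prior, the mean over a gene's probe sets and arrays left out, singly or, chosen after seeing the data, in 2 pairs.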

Additional observations from a re-analysis of the deposited data

How the results depend on the processing

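No member passed the adjusted limma test under any of the 14 alternatives, and 20 of the 35 members kept their direction in each that gave them a value. Members at an unadjusted p under 0.05 numbered 1 after the low-signal filter (22 members left, ADAMTS median 0.03), 6 with both arrays high in B cell markers (TKI258 replicate 3, water replicate 1) left out, when 1 probe set passed, and 5 with both least alike (TKI258 replicate 3, water replicate 2) left out. Those 5 were 1 higher and 4 lower, and the unadjusted limma p there was 0.0776 for Adamts5 and 0.0762 for Adamtsl1. The share of all genes at that level is not given for any alternative, so the counts of members cannot be set against a background. In that last fit the medians were -0.027 for membrane ADAMs and -0.027 for ADAMTS proteases, a gap of 0.00041. The directions of these genes turned there: Adam10 (0.12), Adam33 (-0.027), Adamts9 (-0.038), Adamts12 (-0.12), Adamts14 (-0.13), Adamts16 (-0.016), Adamts17 (-0.074), Adamts18 (-0.14), Adamts20 (-0.012), Adamtsl2 (-0.0054) and Adamtsl3 (0.069). The cause was not tested.

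With single arrays left out, 0 to 3 probe sets passed (3 without water replicate 1) and 3 to 5 members had an unadjusted p under 0.05 (5 without TKI258 replicate 3). The membrane ADAM median ran from -0.11 to -0.030, the ADAMTS median from 0.027 (without TKI258 replicate 3) to 0.16, and the gap from -0.27 to -0.071 (without water replicate 2). Genes that turned had ranges of -0.24 to 0.071 (Adam10), -0.44 to 0.014 (Adam23), -0.14 to 0.28 (Adamts8), -5.01e-05 to 0.46 (Adamts9), -0.037 to 0.22 (Adamts10), -0.0015 to 0.30 (Adamts12), -0.19 to 0.15 (Adamts14), -0.0034 to 0.11 (Adamts16), -0.026 to 0.078 (Adamts17), -0.037 to 0.25 (Adamts18) and -0.047 to 0.18 (Adamtsl5).

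Deviations of same-numbered tumors correlated by -0.232, 0.186 and 0.009 over probe sets, and those of differently numbered tumors by -0.279 to 0.309. With 3 tumors a group these correlations cannot decide whether the numbers pair the samples, and the main fit did not pair them. With the replicate number as a block, 0 probe sets passed and 3 members had an unadjusted p under 0.05, as without it.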
